A study of Mus musculus with 6 samples.

Results

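GANT61 and cyclopamine, compounds that block the Hedgehog pathway at different steps, were set against each other directly in mouse heart muscle cells. The comparison used 2 of the 3 count columns of the series, the GANT61 column over the cyclopamine column, and it took in all 55487 genes of the table. The labels list 4 of the 6 samples of the series under these compounds, 2 with GANT61, 2 with cyclopamine, and 2 more with DMSO. The cells were ventricular cardiomyocytes of wild-type mice, taken from pups at P1 or P2 and freed of fibroblasts by magnetic sorting against CD90, a surface protein of fibroblasts. After 12 h on fibronectin in medium with 10% serum they were exposed for 48 h to GANT61 at 3 µM, to cyclopamine at 5 µg/ml or, as the solvent control, to DMSO. The doses are in different units and are not matched, so each difference below is one between the compounds at those doses. A Smoothened agonist in the treatment protocol was not analysed here.

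Hedgehog ligands bind the receptor Patched and so free Smoothened, a membrane protein that relays the signal to the GLI transcription factors, which then turn on genes such as Gli1, Ptch1 and Hhip. The pathway patterns the embryonic heart and keeps progenitor cells dividing in many tissues. Cyclopamine, a plant alkaloid, binds and blocks Smoothened, and GANT61 is a synthetic compound that blocks the GLI factors downstream of it. A direct comparison therefore asks how the transcripts differ between a block at the membrane and a block at the transcription factors.

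Each group has 1 column of raw counts. The labels do not tie a column to either sample of its group or say that samples were pooled, so no difference has a replicate check and no p-value is given. The columns held 35461530 counts with GANT61, 38966515 with cyclopamine and 36661845 with DMSO. Each gene was scaled for depth by TMM and compared as a log2 ratio of GANT61 over cyclopamine, with an exact 95% counting interval in brackets. The interval covers counting error only. A gene was called higher or lower when the compounds differed at least 1.5-fold and the interval excluded no difference.

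The cells carried the transcripts of their label in every column. Myh6, the alpha myosin heavy chain of heart muscle, had 709927 counts with GANT61, 888000 with cyclopamine and 879786 with DMSO. Actc1, cardiac alpha actin, had 647688, 588530 and 721568 counts in the same order. Of 13 cardiomyocyte identity genes none was called higher and 3 were called lower with GANT61, beside 8.83% called lower over all genes compared. They were the ventricular light chains Myl2 and Myl3 and the calcium pump regulator Pln. In that list 10 of the 13 had a negative log2 ratio, with a median of -0.330. In bulk samples of this kind, fewer cells of a type and less RNA per cell cannot be told apart.

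Of 15576 genes with enough counts to compare, 960 (6.16%) were called higher with GANT61 and 1375 (8.83%) were called lower. The median log2 ratio over all of these genes was -0.0033, and 12426 of them (79.8%) lay within 1.5-fold. A further 815 genes differed by 1.5-fold or more with an interval that included no difference. The share of genes called was larger where counts were low. It was 28.1% below 1 CPM (counts scaled to a common library size, averaged over GANT61 and cyclopamine) and 30.1% at 1 to 5 CPM. It was 12.0% at 5 to 20 CPM, 5.19% at 20 to 100 CPM and 4.69% at 100 CPM or more. Among the 10033 genes with at least 5 CPM, 3.12% were called higher and 4.15% lower, and these are the shares against which abundant genes are read. At the edge of the threshold among genes of 100 CPM or more, Sqstm1 (0.585) and Txn1 (0.586) were just inside, and Hspb8 (0.577) and Srl (-0.582) were just outside.

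**Figure D1:**
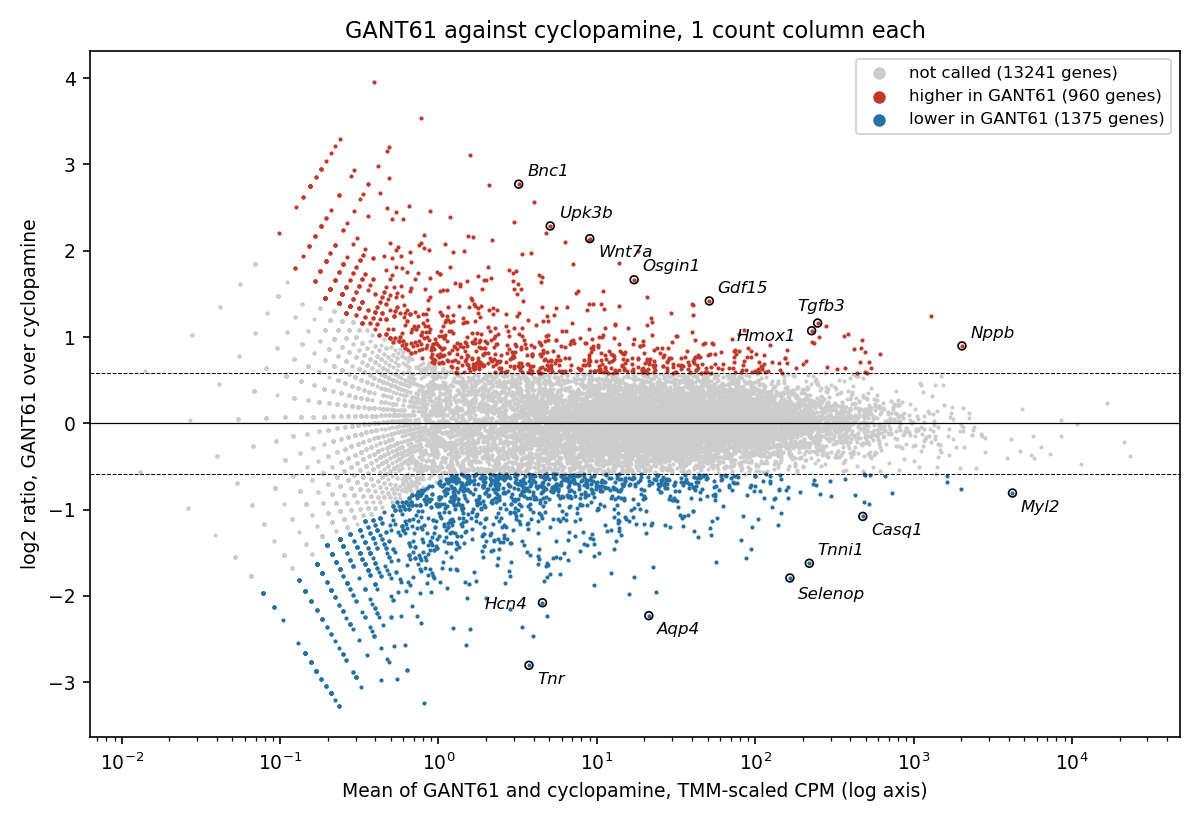
Log2 ratio of GANT61 over cyclopamine (y axis) against mean level in CPM on a log axis (x axis) for the 15576 genes compared, 1 point per gene, with called genes coloured. The cloud is centred near 0 and is wide on the left, where counts are low, so that most of the called genes sit at low levels.

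The genes of the Hedgehog pathway itself differed little between the compounds. Of 28 components 23 could be compared, and 1 was called, Cdon, a co-receptor for Hedgehog ligands, with 3341 counts with GANT61, 6581 with cyclopamine and 8643 with DMSO, a log2 ratio of -0.88 (-0.94 to -0.82). A share of 1 in 23 is under the 8.83% called lower over all genes. Among the 12 components with a mean of at least 5 CPM, Cdon was also the 1 called, beside 4.15% called lower at that level. Smo itself had 455, 672 and 798 counts, a log2 ratio of -0.46 (-0.64 to -0.29) that is under 1.5-fold. Ptch1, receptor and target of the pathway, had 1168, 1368 and 1437 counts, a log2 ratio of -0.13 (-0.24 to -0.01). Gli3, mainly a repressor, had 150, 187 and 205 counts, a log2 ratio of -0.21 (-0.54 to 0.10), and Gli2, the main activator, had 14, 11 and 16 counts, which leave an interval of -0.80 to 1.73. Gas1, another co-receptor, was at -0.38 and Boc at -0.13, both under 1.5-fold. Gli1, the usual readout of the pathway, had no counts with GANT61 or cyclopamine and 7 with DMSO, and Hhip had none in any column, so no fold can be given between the compounds. A count of 0 in a column allows up to 3 counts, so a difference in Gli1 was not detectable at this depth. Among ligands, Shh had 0, 0 and 8 counts, Ihh had 8, 3 and 2, and Dhh had 14, 15 and 18. Of 17 GLI targets 1 was called higher, Osr1 (213, 148 and 156 counts, 0.62), and 1 lower, Snai2 (67, 112 and 73 counts, -0.62), both transcription factors. Each share is under the one over all genes, 6.16% higher and 8.83% lower.

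Of the 15 genes with the highest log2 ratios at a mean of at least 5 CPM, 6 were markers of the mesothelium, the epithelial sheet that on the heart is the epicardium. Upk3b, Wnt7a, Lrrn4 and Upk1b were each below 5 CPM with cyclopamine and with DMSO. So were Smpd3, Adamts20 and Mgst1, also among the 15, and Igfbp4 was below it with cyclopamine. These genes reached that mean through the GANT61 column alone, so their place among the 15 rests on the column where they were high. Upk3b, a uroplakin made by mesothelial cells, (chr5:136038496-136046487, GRCm38, plus strand) had 303 counts with GANT61, 65 with cyclopamine and 45 with DMSO, a log2 ratio of 2.29 (1.93 to 2.73). Wnt7a, a secreted Wnt ligand, had 528, 127 and 166 counts, a log2 ratio of 2.14 (1.88 to 2.45). Lrrn4, a leucine-rich repeat membrane protein of mesothelium, had 521, 127 and 75 counts (log2 ratio 2.12). In all 3 the cyclopamine and DMSO columns were nearer to each other than to the GANT61 column, which stood above both. Smpd3, the neutral sphingomyelinase that makes ceramide, came next with 367, 90 and 130 counts. Angpt4, an angiopoietin, followed with 773, 227 and 218 counts (log2 ratio 1.86). The rest of the 15 highest genes of at least 5 CPM were Upk1b, Osgin1, Msln, Adamts20, Igfbp4, Kcnk3, Gdf15, Aldh1a1, Mgst1 and Mgmt, with log2 ratios of 1.85 down to 1.38.

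The genes that stood lowest included a water channel, a selenium carrier and muscle proteins. Aqp4, a water channel, had 267 counts with GANT61, 1350 with cyclopamine and 2337 with DMSO, a log2 ratio of -2.23 (-2.43 to -2.05). Astn2, an astrotactin membrane protein, had 345, 1443 and 872 counts (log2 ratio -1.96). For Aqp4 both inhibitor columns were below DMSO, and the GANT61 column was the lower of the pair. For Astn2 the cyclopamine column was the highest of the 3. Ky, a muscle peptidase, and Selenop, the secreted selenium carrier, followed with log2 ratios of -1.87 and -1.79. Others among the 15 lowest were Dhrs7c, Eda, Cd1d1, Tnnt1, Tnni1, Cmya5, Sparcl1, Sphkap and Kcna4, at -1.78 to -1.56. About 25.8% of the 50-base windows of Cd1d1 also occur in another gene, so its reads may be divided between copies.

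**Figure D2:**
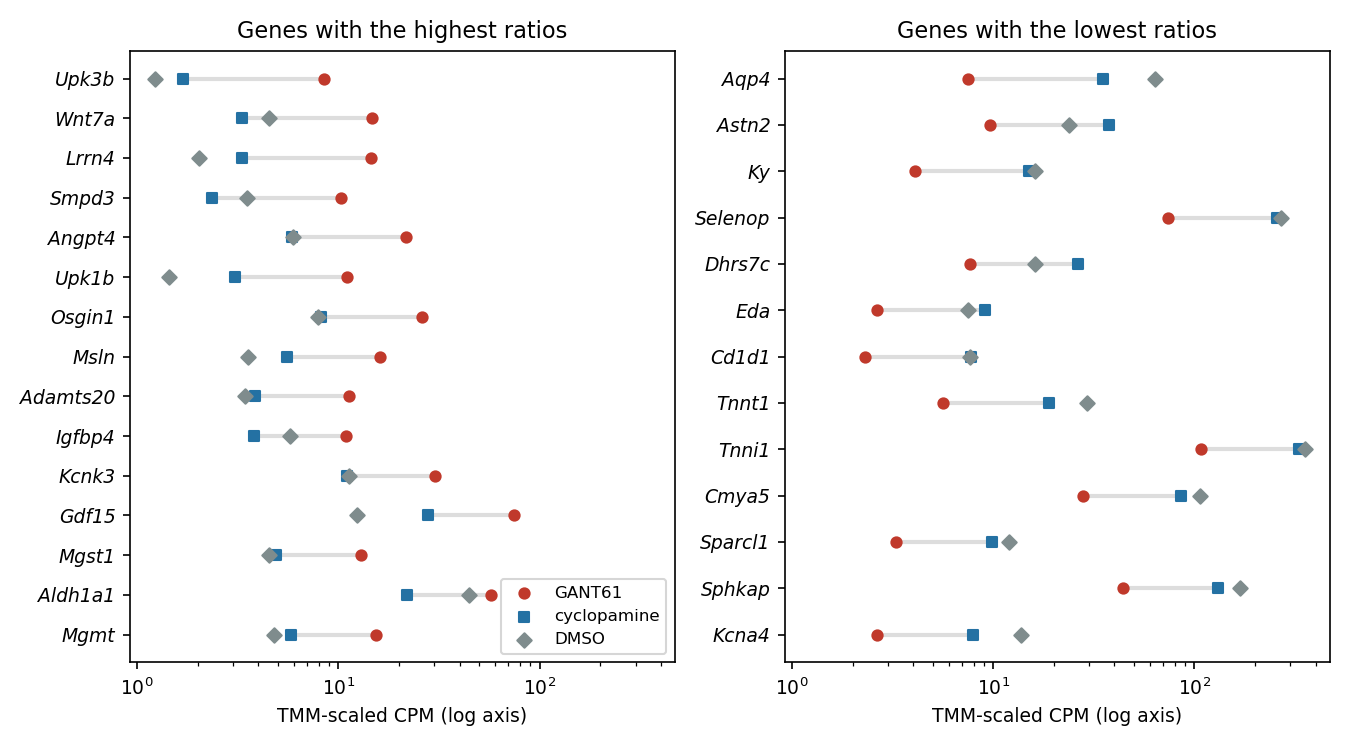
Levels in CPM on a log axis of genes from the 15 highest and the 15 lowest with GANT61 relative to cyclopamine, among genes of at least 5 CPM, with 1 point per count column (GANT61, cyclopamine, DMSO). Aqp4 has 267, 1350 and 2337 counts behind its points, and the GANT61 point lies below both others for each of the lower genes.

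Among genes of at least 100 CPM, 48 (2.45%) were called higher and 44 (2.24%) lower. Tgfb3, a TGF-beta ligand, had 12276 counts with GANT61, 5886 with cyclopamine and 5782 with DMSO, a log2 ratio of 1.16, and Nmrk2, a kinase of NAD synthesis in muscle, had 13667, 6698 and 3154 counts (1.13). For Tgfb3 the cyclopamine column lay at the level of DMSO, while for Nmrk2 it lay between the GANT61 and DMSO columns. Hmox1, Plk2, Txnrd1, Peg3, Prss23, Serpinb9b and Esd were also among the 10 highest, down to a log2 ratio of 0.93. Below them, Selenop (chr15:3268547-3280508, plus strand) had 2657 counts with GANT61, 9875 with cyclopamine and 9938 with DMSO. Idh2, the mitochondrial NADP-dependent isocitrate dehydrogenase, had 3063, 7461 and 5541 counts (log2 ratio -1.18). Casq1, a calsequestrin that stores calcium, had 11015, 24950 and 39720 counts (-1.08), and Abcc9, the sulfonylurea receptor subunit of potassium channels, had 3393, 7477 and 3868 (-1.04). The 10 lowest also held Tnni1, Sox4, Cacna1g, Fuca2, the nuclear long noncoding RNA Neat1 (12073, 24374 and 19970 counts, log2 ratio -0.91) and Cdon. Of the exon length of Sox4, 54.6% overlaps another annotated gene, and without a stated strand setting the reads of such partners cannot be told apart.

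The cell cycle separated the compounds in 1 direction. Of 41 genes of G2 and mitosis, 22 were called lower with GANT61, beside 8.83% of all genes compared. None was called higher and 38 had a negative log2 ratio, with a list median of -0.667 against -0.0033 over all genes. Among the 18 members with a mean of at least 5 CPM over both inhibitor columns, 7 were called lower, beside 4.15% at that level. Over the 23 of at least 5 CPM in 2 of the 3 columns, 10 were called lower and the median was -0.520. The summed level of the list was 196.9 CPM with GANT61, 277.6 with cyclopamine and 783.2 with DMSO, so both inhibitor columns were under DMSO and the GANT61 column was the lower. Mki67, the nuclear protein that marks cycling cells, had 316 counts with GANT61, 699 with cyclopamine and 1719 with DMSO, a log2 ratio of -1.04 (-1.24 to -0.85). Nusap1, a spindle protein, had 41, 125 and 301 counts, a log2 ratio of -1.46 (-2.05 to -0.99). Ttk, the spindle checkpoint kinase, had 26, 72 and 162 counts, and its log2 ratio of -1.30 carried a wide interval of -2.07 to -0.70. Ndc80, a kinetochore subunit, had 34, 88 and 289 counts (-1.22), and Cdc25c, the phosphatase that starts mitosis, had 14, 37 and 156 counts (-1.19). Ube2c, which brings ubiquitin to the anaphase-promoting complex, had 100, 223 and 739 counts (-1.04). All of these genes kept the same order, with GANT61 lowest and DMSO highest. Apart from Mki67 they had means under 5 CPM, where 28.1% to 30.1% of all genes were called in either direction.

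Promoters of Ttk and Ndc80 are shown because these genes are among the lowest of the mitotic list and each carries the cell cycle homology region (CHR), a short element known from promoters of mitotic genes. The windows run from 250 bases before to 50 bases after the annotated start in RefSeq, build GRCm38.p6, and the motifs searched on both strands were TTTGAA for the CHR and CCAAT for the CCAAT box, which do not overlap each other here. Capitals mark the matches, and TTCAAA is the CHR read on the other strand. Ttk lies at chr9:83834439-83834738 on the plus strand, with 1 CHR and 2 CCAAT boxes, and Ndc80 at chr17:71526808-71527107 on the minus strand, with 1 CHR.
Ttk: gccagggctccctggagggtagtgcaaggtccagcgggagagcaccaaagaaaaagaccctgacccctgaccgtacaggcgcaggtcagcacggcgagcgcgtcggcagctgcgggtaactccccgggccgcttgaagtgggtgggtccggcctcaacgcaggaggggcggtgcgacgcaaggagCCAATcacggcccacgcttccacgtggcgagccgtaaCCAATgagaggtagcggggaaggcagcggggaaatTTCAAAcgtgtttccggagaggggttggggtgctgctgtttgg
Ndc80: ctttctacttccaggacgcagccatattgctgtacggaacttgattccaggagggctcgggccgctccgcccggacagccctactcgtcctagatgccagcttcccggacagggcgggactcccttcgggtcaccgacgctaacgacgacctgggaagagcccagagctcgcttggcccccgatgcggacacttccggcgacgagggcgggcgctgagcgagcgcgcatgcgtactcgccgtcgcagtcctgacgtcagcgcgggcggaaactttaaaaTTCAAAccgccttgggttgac
In both windows the CHR lies close to the annotated start. The CHR letters occur in 17.9% of all 32851 promoter windows and in the windows of 14.3% of the genes compared. Of 33 G2 and mitosis genes with a window, 24 hold them (72.7%). The CCAAT letters occur in 37.4% of windows, and 25 of the 33 genes hold them. Mitotic genes with and without the CHR letters had median log2 ratios of -0.565 and -0.707, so the size of the difference was no larger where the letters occur. A match is a description of the letters and not of a bound site.

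Genes of DNA replication stood apart less. Of 43 members 4 were called lower, a share close to the 8.83% of all genes, and 1 was called higher, with a median of -0.261. Among the 25 with a mean of at least 5 CPM, 2 were called lower, beside 4.15% of all genes at that level. Mcm5, part of the replicative helicase, had 182 counts with GANT61, 334 with cyclopamine and 829 with DMSO (log2 ratio -0.77). Ccne2, a G1/S cyclin, had 68, 129 and 303 counts (-0.81), while its paralogue Ccne1 had 250, 176 and 298 counts (0.60). Pole, a replicative DNA polymerase, and Lig1, a DNA ligase, were called lower at -0.74 and -0.61. Of 16 CDK inhibitors and genes of cell cycle exit on 1 list, 3 were called lower (Ccng2, Rbl1 and Cdkn2c) and none higher. That list leaves out Cdkn1a, a CDK inhibitor counted with the p53 targets below, which was called higher (0.81).

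Targets of p53, the transcription factor of the DNA damage response, were higher with GANT61 wherever they were called. Of 32 such genes 14 were called higher, beside 6.16% of all genes, none was called lower, and the list median was 0.456. Their summed level was 5134 CPM with GANT61, 3336 with cyclopamine and 2290 with DMSO. Cdkn1a, the p21 inhibitor of cyclin-dependent kinases, had 27868 counts with GANT61, 17102 with cyclopamine and 8708 with DMSO, a log2 ratio of 0.81 (0.78 to 0.83). Gdf15, a secreted stress cytokine, had 2675, 1073 and 458 counts, a log2 ratio of 1.42 (1.32 to 1.52). Plk2, a kinase induced by stress, had 18559, 9704 and 7591 counts (1.04). In these 3 genes the cyclopamine column also stood above DMSO, and the GANT61 column was the highest. Polk, a lesion bypass polymerase (2181, 1240 and 688 counts, log2 ratio 0.92), and Btg2, an antiproliferative factor (7327, 4367 and 2248 counts, 0.85), had the same order. Pmaip1, the death promoter Noxa, was at 0.93 on 80, 44 and 48 counts, with an interval of 0.42 to 1.53. Mdm2, the ubiquitin ligase that degrades p53, had 9338, 6085 and 4600 counts (0.72). The receptors Fas and Tnfrsf10b and the exonuclease Aen were also called higher.

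Antioxidant genes driven by NRF2, the factor that binds antioxidant response elements, were higher with GANT61 too where they were called, and here the summed level with cyclopamine was near that of DMSO. Of 29 members 9 were called higher, beside 6.16% of all genes, and none lower, with a median of 0.267. The summed level was 4397 CPM with GANT61, 3329 with cyclopamine and 3131 with DMSO. Osgin1, an oxidative stress growth inhibitor, had 937 counts with GANT61, 316 with cyclopamine and 290 with DMSO, a log2 ratio of 1.66 (1.49 to 1.86). Hmox1, heme oxygenase, had 11031, 5625 and 3742 counts (1.07). Txnrd1, cytosolic thioredoxin reductase, had 17438, 9305 and 8691 counts (1.01), and Srxn1, sulfiredoxin, had 1984, 1092 and 1038 counts (0.96). Apart from Hmox1, these genes had similar counts with cyclopamine and DMSO. Ftl1, the ferritin light chain, had 20422, 13374 and 13404 counts (0.71). The cystine transporter Slc7a11 and thioredoxin Txn1 were called at 0.67 and 0.59. Gsta1, a glutathione transferase, had 131, 19 and 15 counts (2.76), but 89.7% of its 50-base windows occur in another gene, so its reads are uncertain. Gsta3 had 18, 3 and 5 counts, a log2 ratio of 2.08 with a wide interval of 0.91 to 5.09.

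Promoters of Srxn1 and Txnrd1 are shown because both genes were called higher and both windows hold the core letters of the antioxidant response element (ARE), TGACNNNGC, searched on both strands. Capitals mark the match, which in both is the motif read on the other strand. Srxn1 lies at chr2:152105274-152105573 and Txnrd1 at chr10:82858956-82859255 in RefSeq's GRCm38.p6, both on the plus strand. For Txnrd1 this is 1 of 3 annotated windows.
Srxn1: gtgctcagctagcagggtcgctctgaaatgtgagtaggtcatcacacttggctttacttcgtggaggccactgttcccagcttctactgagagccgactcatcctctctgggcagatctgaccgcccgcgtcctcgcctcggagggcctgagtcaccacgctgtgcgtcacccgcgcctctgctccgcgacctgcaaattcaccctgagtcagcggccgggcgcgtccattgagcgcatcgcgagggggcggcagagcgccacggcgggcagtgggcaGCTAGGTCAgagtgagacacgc
Txnrd1: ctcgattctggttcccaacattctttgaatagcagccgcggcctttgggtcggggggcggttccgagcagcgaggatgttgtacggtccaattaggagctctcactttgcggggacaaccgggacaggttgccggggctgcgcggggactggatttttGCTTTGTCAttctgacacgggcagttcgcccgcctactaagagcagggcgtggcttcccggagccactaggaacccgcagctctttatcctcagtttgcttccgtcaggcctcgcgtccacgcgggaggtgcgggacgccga
The ARE core occurs in 12.4% of all windows and in 16.8% of the genes compared. Of 24 NRF2 targets with a window, 9 hold it (37.5%), and their median log2 ratio was 0.259, against 0.267 for the targets without it. The called and the uncalled targets were thus not set apart by these letters in these windows.

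Genes of metal binding and zinc response were called lower with GANT61 more often than higher. Mt2, a metallothionein that binds zinc and copper, had 483 counts with GANT61, 1174 with cyclopamine and 117 with DMSO, a log2 ratio of -1.18 (-1.33 to -1.02). Mt1 had 1384, 2251 and 503 counts, a log2 ratio of -0.60 (-0.70 to -0.50). Both inhibitor columns were above DMSO and the cyclopamine column was the highest. Slc30a1, the zinc exporter of the plasma membrane, had 661, 1175 and 660 counts (-0.73), so the GANT61 column was at the level of DMSO. Slc30a2, a zinc transporter of vesicles, was lower (53, 127 and 293 counts, -1.13), and Slc39a10, a zinc importer, was higher (1191, 695 and 1057 counts, 0.88). Of the 7 genes of this list 4 were called lower and 1 higher, with a median of -0.599. The shares over all genes were 8.83% lower and 6.16% higher. The metallothionein Mt3 (0.31) and the factor Mtf1 (0.14) were not called. Over the 6 of at least 5 CPM in 2 of the 3 columns, 3 were called lower and the median was -0.229. Among all genes with a mean of at least 5 CPM, 4.15% were called lower. Of the exon length of Mt2, 73.5% overlaps another annotated gene, and the same limit on strand holds.

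The metallothionein promoters are shown because Mt1 and Mt2 are neighbours, 5.51 kb apart on chromosome 8, and were called in the same direction. The core of the metal response element (MRE) was searched as TGCNCNC on both strands, and capitals mark the matches. Mt2 (chr8:94172368-94172667, plus strand, GRCm38.p6) holds 6, and Mt1 (chr8:94178839-94179138, plus strand) holds 3.
Mt2: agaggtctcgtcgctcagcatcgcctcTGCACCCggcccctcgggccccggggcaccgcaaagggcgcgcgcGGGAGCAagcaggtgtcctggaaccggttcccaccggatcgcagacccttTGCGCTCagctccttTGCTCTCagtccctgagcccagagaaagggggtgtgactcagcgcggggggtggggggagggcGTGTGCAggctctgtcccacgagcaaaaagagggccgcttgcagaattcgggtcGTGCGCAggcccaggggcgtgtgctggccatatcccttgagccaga
Mt1: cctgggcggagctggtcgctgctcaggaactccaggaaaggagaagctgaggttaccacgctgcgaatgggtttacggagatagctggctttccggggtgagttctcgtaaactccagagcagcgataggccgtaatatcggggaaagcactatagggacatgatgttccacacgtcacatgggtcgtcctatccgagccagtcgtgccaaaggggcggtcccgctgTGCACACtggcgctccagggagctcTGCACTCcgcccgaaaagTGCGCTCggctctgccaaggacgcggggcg
The MRE core is a loose motif. It occurs in 51% of all windows and in 64.4% of the genes compared, and all 7 members of the list hold it.

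**Figure D3:**
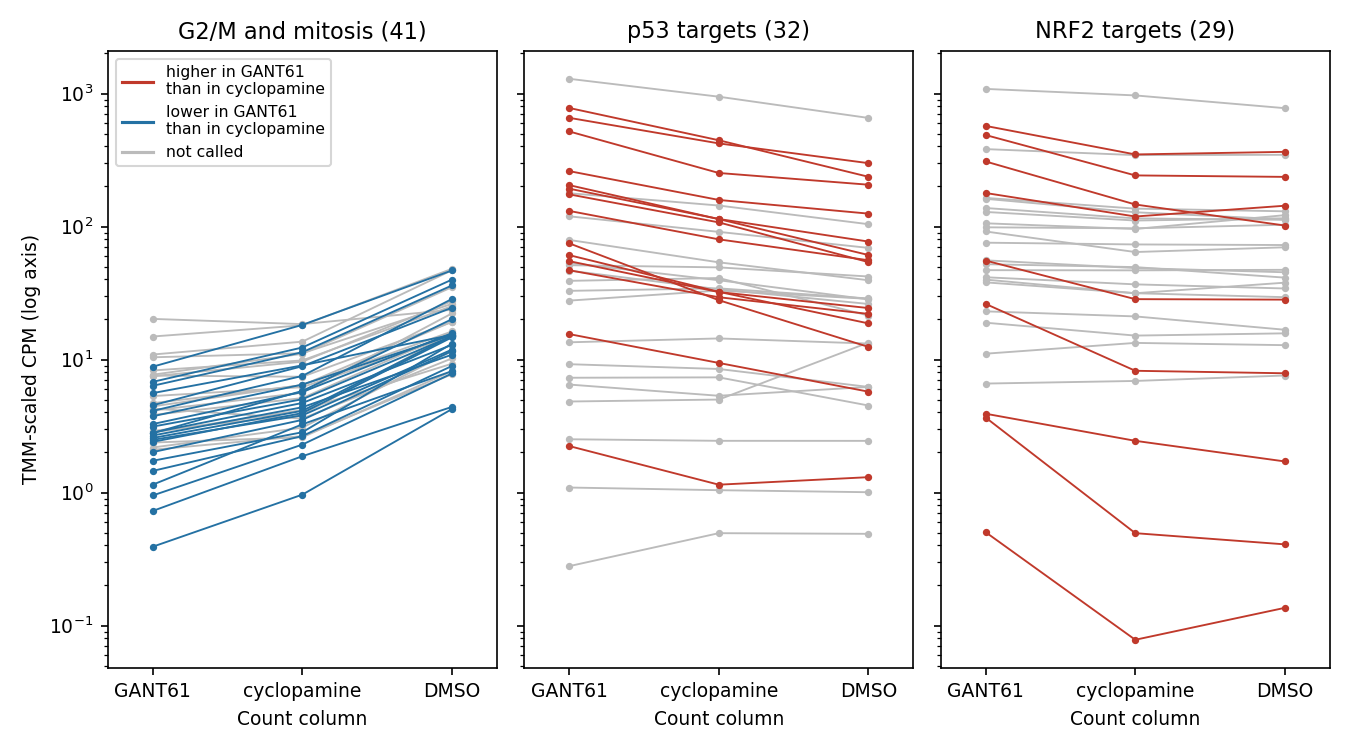
Levels in CPM on a log axis of the members of the mitotic, p53 and NRF2 lists, with 1 line per gene over the 3 count columns (GANT61, cyclopamine, DMSO) and called genes coloured. The 22 called mitotic genes are lowest with GANT61 and highest with DMSO, and the 14 called p53 targets are highest with GANT61.

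Some other redox genes were lower. Of 18 selenoproteins and glutathione peroxidases on this list 4 were called lower and none higher, with a median of -0.136. The share called lower over all genes was 8.83%. Txnrd1, also a selenoprotein, was counted with the NRF2 targets instead and was called higher (1.01). Selenop, at a log2 ratio of -1.79 (-1.85 to -1.73), was 3.46-fold lower with GANT61 and at the level of DMSO with cyclopamine. Selenow, a small muscle selenoprotein, had 1863 counts with GANT61, 3278 with cyclopamine and 4045 with DMSO (-0.71). Selenom had 763, 1284 and 1655 counts (-0.65), and Dio2, the deiodinase that activates thyroid hormone, had 12, 47 and 19 counts (-1.72).

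Mesothelial markers formed the list with the largest median among the 38 lists, 1.462, with 16 of 22 members called higher and 1 lower. The shares over all genes were 6.16% higher and 8.83% lower. Over the 13 members with a mean of at least 5 CPM, 7 were called higher and 1 lower. Among all genes of that level the shares were 3.12% and 4.15%. The median of those 13 is 0.591. Over the 8 members of at least 5 CPM in 2 of the 3 columns it is 0.385, below the 0.559 of the p53 list, and that filter drops members such as Lrrn4 and Upk3b, which pass 5 CPM with GANT61 alone. Bnc1 (chr7:81966672-81992292, minus strand), a zinc finger factor of mesothelium, had 202 counts with GANT61, 30 with cyclopamine and 34 with DMSO, a log2 ratio of 2.77 (2.29 to 3.46). Krt7, a simple epithelial keratin, had 181, 37 and 86 counts (2.33). Msln, mesothelin, had 579, 213 and 131 counts (1.54), and Upk1b, a uroplakin, had 397, 117 and 53 counts (1.85). Wt1, the epicardial transcription factor, was called at 0.92 on 109, 61 and 70 counts. Aldh1a1 and Aldh1a2, enzymes of retinoic acid synthesis, were at 1.39 and 1.27. Krt8 and Krt18, partner keratins that lie 23.7 kb apart, were at 0.91 and 0.59. The 1 member called lower was Clu, clusterin, a secreted chaperone, with 19064, 35699 and 24394 counts (-0.80). A further 5 members were not called, among them Tbx18, an epicardial factor, at 91.1 CPM with GANT61 and 91.0 with cyclopamine. Because Clu is so abundant, the summed level of the list ran 1274 CPM with GANT61, 1458 with cyclopamine and 1160 with DMSO, and without Clu it was 742, 528 and 497 CPM. No member was at 0 in all columns, and the part of a different share of mesothelial cells in the results was not tested.

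Markers of other non-muscle cells showed smaller or mixed differences. Those of macrophages and leukocytes mostly had negative log2 ratios, on few counts. Fibroblast markers were divided, with 2 of 18 called higher, 2 lower and summed levels of 1885 CPM with GANT61, 2067 with cyclopamine and 2625 with DMSO. Those counts are near the shares over all genes, 6.16% higher and 8.83% lower. Thy1, which encodes the CD90 used to deplete fibroblasts, had 1207 counts with GANT61, 2834 with cyclopamine and 3050 with DMSO (-1.13), while Col3a1, a fibrillar collagen, had 3427, 2099 and 3411 counts (0.81). Among 20 endothelial markers 2 were called lower, again near the 8.83% of all genes, with summed levels of 244.6, 276.4 and 313.9 CPM. Of these, Ramp2 shares 73.8% of its windows with another gene. Smooth muscle and pericyte markers gave 1 higher and 3 lower of 11, with Cnn1, calponin, at 1532, 3184 and 10724 counts (-0.95) and summed levels of 4565, 4939 and 6496 CPM. Macrophage and leukocyte markers summed to 8.91 CPM with GANT61, 16.4 with cyclopamine and 10.9 with DMSO over the 8 of 19 that could be compared. Of these 8, 7 had a negative log2 ratio, 3 were called lower and 1 higher, with a median of -0.511. Lyz2, lysozyme, was lower (163, 465 and 274 counts, -1.40), as were Cd68, a lysosomal protein of macrophages (17, 51 and 41 counts), and Ptprc, the leukocyte antigen CD45 (2, 12 and 4 counts). Lyz2 was the 1 member with a mean of at least 5 CPM and made up most of each sum, at 4.55, 12.1 and 7.44 CPM. About 15.4% of its 50-base windows also occur in another gene. Csf1r, the receptor for CSF1, was higher (107, 57 and 40 counts, 0.98), and Cd163 was at 0 in all columns. Schwann cell and neuronal markers gave 3 lower of 8, led in counts by the tubulin Tubb3 (345, 798 and 840 counts, -1.10), with summed levels of 237.9, 244.9 and 240 CPM and with Gfap and Chga at 0. The part of these cells in the results was not tested.

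Ion channels and calcium handling genes that were called were nearly all lower with GANT61. Of 41 genes of this group 12 were called lower and 1 higher, with a median of -0.322, beside 8.83% called lower over all genes. Among the 35 with a mean of at least 5 CPM, 9 were called lower, beside 4.15% at that level. Hcn4 (chr9:58823412-58863175, plus strand), the main pacemaker channel, had 61 counts with GANT61, 283 with cyclopamine and 629 with DMSO, a log2 ratio of -2.08 (-2.54 to -1.71). Cacna1g, a T-type calcium channel, had 3068, 6460 and 6837 counts (-0.97). With cyclopamine Cacna1g was thus near the DMSO level, while Hcn4 was below DMSO with both compounds. Hrc, a calcium-binding protein of the sarcoplasmic reticulum, had 957, 2072 and 2017 counts (-1.01), and Kcnh2, the rapid delayed rectifier channel, had 2676, 4768 and 6147 counts (-0.73). Pln, phospholamban, had 44800, 76814 and 54278 counts (-0.68), with the cyclopamine column highest, and 64.7% of its exon length overlaps another annotated gene. Kcnk3, a background potassium channel, was the exception at 1.46, with 1087, 423 and 416 counts. Scn10a, a sodium channel known from sensory neurons and the conduction system, had 138, 320 and 166 counts (-1.10). Kcnj8 (3, 33 and 15 counts, -2.73) and Abcc9, the pore and the regulatory subunit of an ATP-sensitive potassium channel, are 16.2 kb apart on chromosome 6 and were both called lower.

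**Figure D4:**
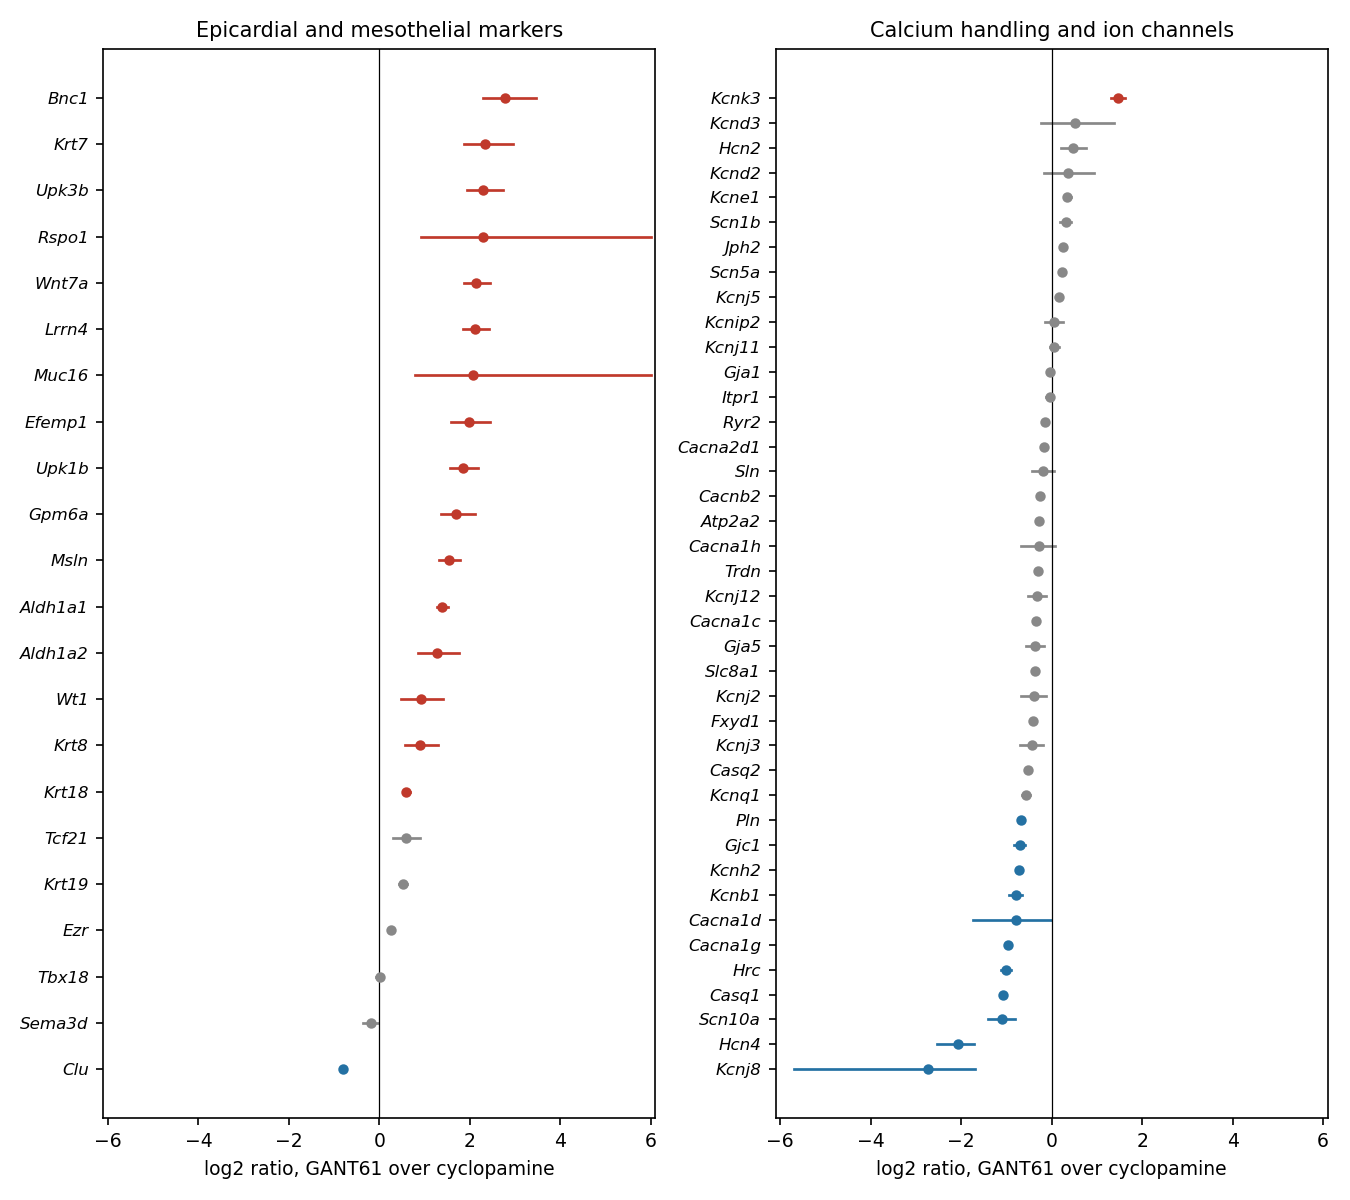
Log2 ratio of GANT61 over cyclopamine (x axis) with its exact 95% counting interval for mesothelial markers and for genes of calcium handling and ion channels, with called genes coloured and intervals cut off at 6. Bnc1 (2.77) and Kcnk3 (1.46) stand at the top, Clu (-0.80) and Kcnj8 (-2.73) at the bottom, and genes with few counts have wide intervals.

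Within the sarcomere, the contractile unit of muscle, slow skeletal troponins and ventricular light chains were lower and most members were not called. Of 36 members 5 were called lower and 3 higher, beside 8.83% and 6.16% over all genes. The median was -0.073, which is -0.039 when scaled by library size alone. Tnni1, slow skeletal troponin I, had 3860 counts with GANT61, 12748 with cyclopamine and 13043 with DMSO, a log2 ratio of -1.62 (-1.67 to -1.57). Tnnt1, slow skeletal troponin T, had 202, 726 and 1074 counts (-1.73), and Tcap, a cap protein of titin, had 889, 2379 and 3233 counts (-1.32). Both troponins and Tcap were lowest with GANT61. Myl2 had 109786, 206145 and 168176 counts (-0.81), and Myl3 had 53170, 96548 and 86847 counts (-0.76). Acta1, skeletal alpha actin, was higher than with cyclopamine (3782, 2468 and 5281 counts, 0.72) and under DMSO. Xirp2, an actin-binding repeat protein, had 23250, 15200 and 16712 counts (0.71). Myom3, an M-band protein, rested on few counts (55, 9 and 22, log2 ratio 2.46).

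Genes of the fetal heart shared no direction, with 2 of 22 called higher, 4 lower and a median of -0.059. It is 0.039 when only members of at least 5 CPM in 2 of the 3 columns are kept. For this and the next 2 lists, the shares over all genes were 6.16% higher and 8.83% lower. Nppb, the natriuretic peptide BNP made under load, had 94256 counts with GANT61, 54310 with cyclopamine and 38459 with DMSO, a log2 ratio of 0.90 (0.88 to 0.91), while Igf2 (74, 149 and 129 counts, -0.89) shares 75.9% of its windows with another gene. Of 30 genes of mature cardiomyocytes 4 were called lower and none higher. Ckm, the muscle creatine kinase, had 7694, 14752 and 18158 counts (-0.84), and Fhl2, a LIM protein, had 11021, 21010 and 29295 counts (-0.83). Art1, an ADP-ribosyltransferase of muscle, was at -1.88 on 9, 41 and 54 counts. Among 23 cardiac transcription factors 5 were called lower and none higher, with a median of -0.231. They were the Iroquois factors Irx3 (1089, 1970 and 1627 counts, -0.75), Irx4 (-0.67) and Irx5 (-0.61), of which Irx4 marks ventricle, the homeodomain protein Hopx (-0.65) and the methyltransferase Smyd1 (-0.59). Of the exon length of Hopx 27.2% overlaps another gene.

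**Figure D5:**
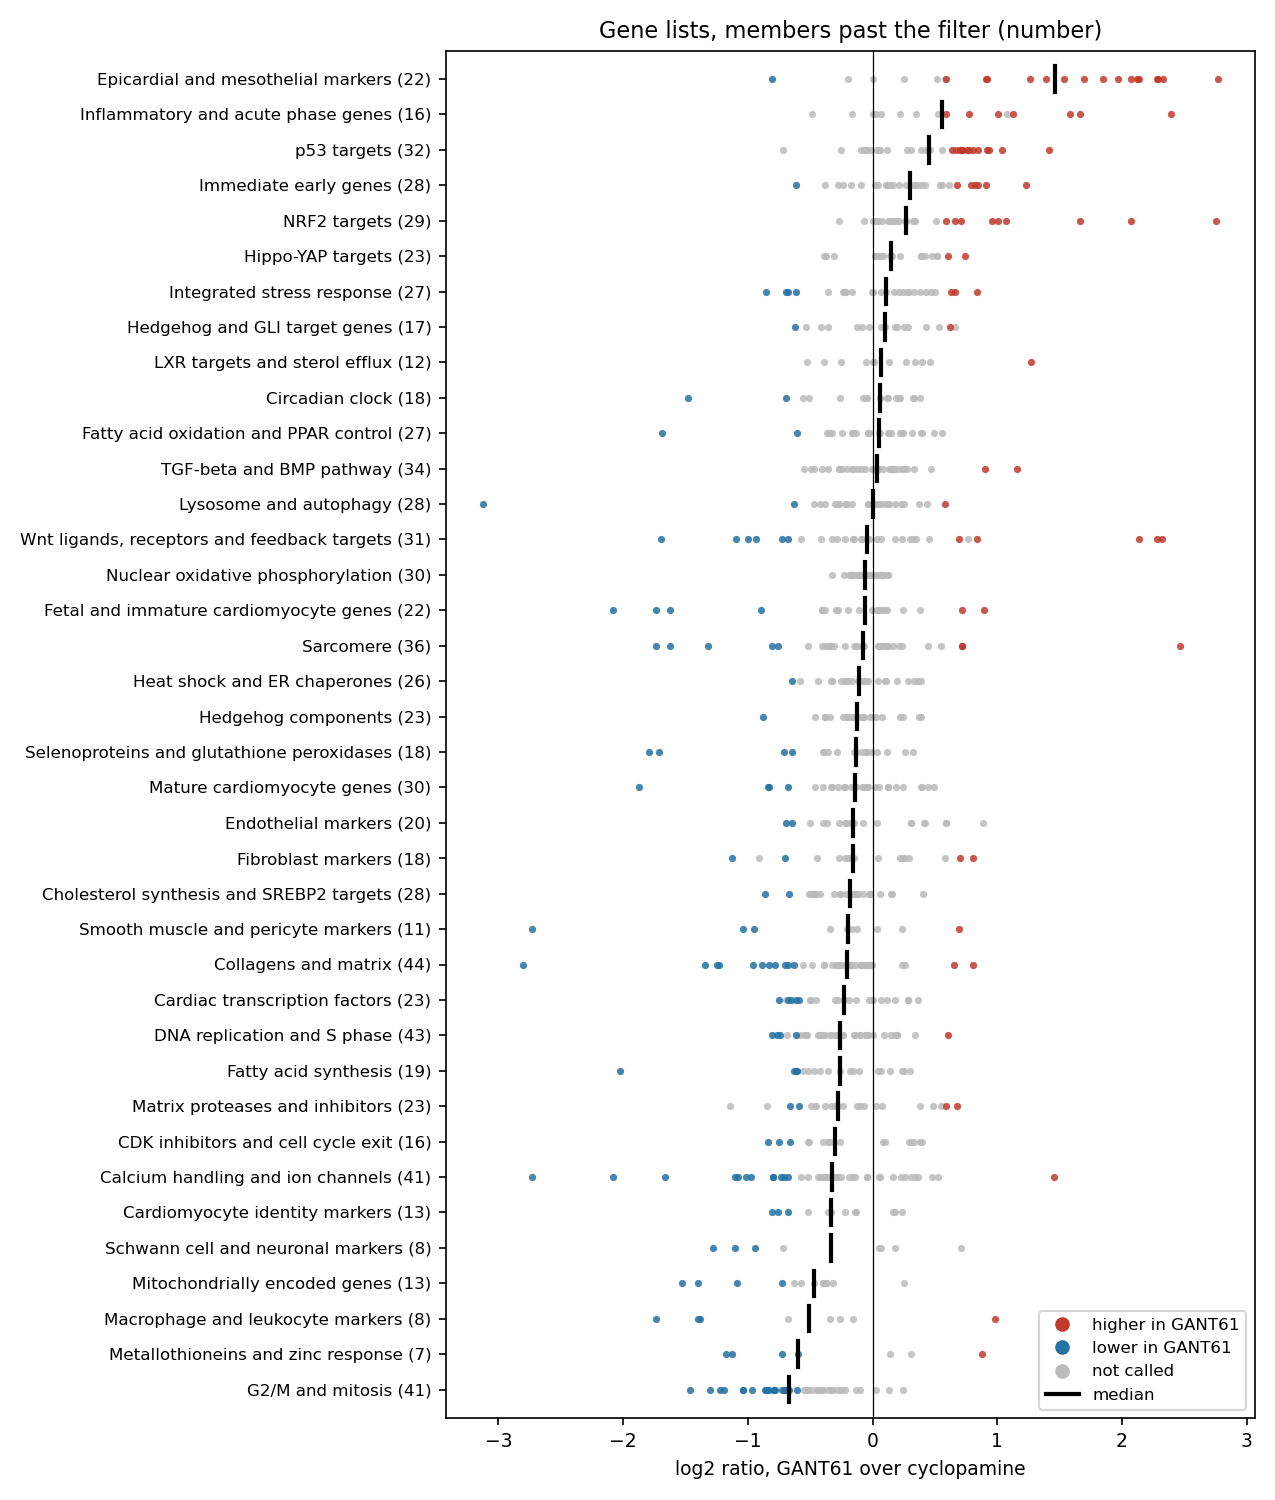
Log2 ratios of GANT61 over cyclopamine for the members of each gene list, 1 point per gene, with the list median as a bar, called genes coloured and the number of members compared in brackets. Over all members compared, mesothelial markers have the largest median (1.462), and the mitotic list, with 22 of its 41 members called lower, has the lowest (-0.667).

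Genes of lipid synthesis differed between the compounds in a few enzymes. Of 28 genes of cholesterol synthesis 2 were called lower and none higher, with a median of -0.181. Both calls fell among the 27 members with a mean of at least 5 CPM, beside 4.15% called lower among all genes of that level. Nsdhl, a sterol dehydrogenase, had 3455 counts with GANT61, 5888 with cyclopamine and 1937 with DMSO (-0.67), and Tm7sf2, a sterol reductase, had 363, 710 and 198 counts (-0.86). The summed level of the list was 4130 CPM with GANT61, 5105 with cyclopamine and 1759 with DMSO, so both inhibitor columns stood far above DMSO and differed less from each other. Of 19 genes of fatty acid synthesis 4 were called lower, beside 8.83% of all genes. Scd2, a stearoyl desaturase, had 46473, 75941 and 28705 counts (-0.61), Fads2, a fatty acid desaturase, had 2144, 3514 and 1186 (-0.61), and Elovl6, an elongase, had 1265, 2106 and 1137 (-0.63). Thrsp, a lipogenic regulator, had 20, 94 and 78 counts (-2.03). Among 12 targets of LXR, the oxysterol receptor, only Pltp, the phospholipid transfer protein, was called (113, 49 and 43 counts, 1.27).

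Matrix genes were lower more often than higher, with 11 of 44 called lower and 2 higher and a median of -0.205. The shares over all genes were 8.83% lower and 6.16% higher. Tnr, tenascin-R, had 32 counts with GANT61, 252 with cyclopamine and 297 with DMSO, a log2 ratio of -2.80 (-3.45 to -2.34). Col6a2 had 1648, 4500 and 3835 counts (-1.35), and Col6a1, the partner chain encoded 85.2 kb away, had 786, 1561 and 1851 counts (-0.89). Col15a1 and Col14a1, collagens of basement membrane zones and fibril surfaces, were at -1.25 and -1.23, and Eln, elastin, had 984, 1693 and 2560 counts (-0.68). Lox, the enzyme that crosslinks collagen, was higher (4830, 3301 and 3194 counts, 0.65). Of 23 matrix proteases and inhibitors 2 were called in each direction, among them the metalloproteases Adamts8 (0.68) and Mmp23 (-0.66).

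Signalling genes outside the Hedgehog pathway showed no common direction. Of 31 Wnt genes 5 were called higher and 6 lower, with a median of -0.042, beside 6.16% and 8.83% over all genes. Over the 16 of at least 5 CPM in 2 of the 3 columns none was called higher and 2 were called lower, with a median of -0.088. Beside Wnt7a, Wnt2 (17, 2 and 4 counts, 2.32) and the R-spondin Rspo1 (12, 1 and 5 counts, 2.28) were higher on few counts. Rspo3, of the same family, was lower (7, 29 and 48 counts, -1.70), as was the Wnt inhibitor Nkd2 (239, 515 and 941 counts). Axin2, a feedback target, had 68, 40 and 41 counts (0.83). In the TGF-beta and BMP pathway 2 of 34 were called higher, Tgfb3 and the BMP receptor Bmpr1b (0.90), and none lower. Of 23 Hippo-YAP targets, Tead4 (0.74) and Gadd45b (0.61) were called higher. Both shares are near the 6.16% called higher over all genes.

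Early response and inflammatory transcripts were mostly higher with GANT61 where they were called. The lists below stand beside shares over all genes of 6.16% higher and 8.83% lower. Of 28 immediate early genes, which answer stimuli within minutes, 6 were called higher and 1 lower, with a median of 0.298. Fos, an AP-1 subunit, had 909 counts with GANT61, 518 with cyclopamine and 483 with DMSO (0.91), and Csrnp1 had 1980, 1227 and 1119 counts (0.79). Of 16 inflammatory genes 7 were called higher and none lower, with a median of 0.558. Over the 7 of at least 5 CPM in 2 of the 3 columns, 2 were called higher and the median was 0.348. Ptgs2, the inducible cyclooxygenase, had 3303, 2077 and 2059 counts (0.77), and the chemokine Cxcl12 had 4091, 2911 and 3128 counts (0.59). In these the cyclopamine column was close to DMSO. C3 of the complement system had 72, 13 and 4 counts (2.40), the chemokine Ccl7 had 133, 70 and 59 (1.01), and Il6, Cxcl1 and Saa3 had at most 41 counts in any column. In the integrated stress response, 3 of 27 were called higher, Atf3 (1712, 1025 and 528 counts, 0.84), Ppp1r15a (0.67) and Ddit3 (0.63), while 4 were called lower, Slc7a3, Pck2, Chac1 and Aldh1l2, at -0.85 to -0.61.

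Of the mitochondrial transcripts, those called were lower with GANT61. Genes of the mitochondrial genome took 5.02% of counts with GANT61, 6.42% with cyclopamine and 5.21% with DMSO. Of the 13 coding genes 4 were called lower, beside 8.83% over all genes, with a median of -0.469. The most abundant of them, mt-Co1, had 726976, 1015640 and 737250 counts (-0.38), which is under 1.5-fold. The called genes, mt-Nd4l (-1.52), mt-Atp6 (-1.40), mt-Co2 (-1.09) and mt-Co3 (-0.72), each have 98.8% or more of their 50-base windows in another annotated gene, so the reads counted for them are uncertain. None of 30 nuclear genes of oxidative phosphorylation was called, and their log2 ratios ran from -0.322 to 0.125.

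Symbols that are only Gm numbers, clone names or accessions were left out of the next count. Only 4 other genes of at least 5 CPM lay on opposite sides of DMSO with at least 1.5-fold to each inhibitor. Igfbp4, a binding protein of insulin-like growth factors, had 391 counts with GANT61, 146 with cyclopamine and 212 with DMSO, a log2 ratio of 1.51. Dhrs7c, a reductase of the sarcoplasmic reticulum, had 274, 1016 and 591 counts (-1.78). Astn2 and Lyz2 also had their cyclopamine counts above DMSO and their GANT61 counts below it. For the rest of the called genes of that level, apart from the symbols left out, the inhibitors did not stand so far apart on both sides of the control.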

How the data were processed

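The authors deposited a table of unnormalized counts of reads over genes, in whole numbers, with 1 column per group. HISAT2 2.1.0, featureCounts, Trimmomatic 0.33, FastQC and the build GRCm38 are named, without role or order, per the submitters' processing notes, and libraries were stranded mRNA libraries per the labels' protocols. Neither the annotation nor how strand was treated is given in the sources used here. Total counts were 35461530 with GANT61, 38966515 with cyclopamine and 36661845 with DMSO.

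Of 55487 genes, 22450 had a count and 15576 passed edgeR's filterByExpr (edgeR 4.0.16, R 4.3.3). Counts were scaled by TMM, and the log2 ratio of GANT61 over cyclopamine was taken with a prior count of 2. Intervals are exact conditional binomial intervals at 95%. List levels in CPM are summed over members that passed the filter. Against a column with no counts, a floor of 3 counts was used. The procedure was tested on simulated data. Positions come from GENCODE mouse release 21 (55227 genes matched) and promoter windows from RefSeq. The 38 gene lists, the size rule and the comparison were chosen with earlier results of these data known. Many lists share members.

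Genes were named by rule from those called. The rule took the 15 highest and 15 lowest of at least 5 CPM, the 10 highest and 10 lowest of at least 100 CPM, up to 5 members per list, genes on opposite sides of DMSO, and Smo, Ptch1, Hhip, Gli1, Gli2 and Gli3. Symbols that are only Gm numbers or clone names were passed over, and a few genes picked by it are left out here. Other genes with values, such as Mki67, Cdkn1a, Mdm2, Ftl1, Kcnh2, Hrc and Wt1 among list members and markers, were chosen after their values were seen. Alternatives tried were DESeq2 1.42.0 size factors, library size with or without mitochondrial genes, other filters, other folds and no interval.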

Additional observations from a re-analysis of the deposited data

How the results depend on the processing

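The counts of 960 genes called higher and 1375 called lower with GANT61 depend mostly on the filter and the fold. They are 291 and 468 among genes of at least 5 CPM in 2 of the 3 columns, and 533 and 764 among genes of at least 100 counts over both columns. At 1.2-fold they are 2459 and 2754, and at 2-fold 465 and 676. Under the other alternatives both counts stayed within 1.5 times, for example 972 and 1366 with DESeq2 size factors and 1081 and 1246 with library size alone. Genes called higher made up 41.1% of all calls, 46.5% with library size alone and 47.2% at 1.2-fold. Of 190 list medians recomputed, 5 moved by more than the allowed range, among them the metallothionein list (-0.229 at 5 CPM) and the mesothelial list (0.385 at 5 CPM), and the fetal list changed sign (0.039 at 5 CPM). Of 492 recomputed log2 ratios of named genes none changed sign and 11 lost the call, those of Mmp11, Smyd1, Mt1, Cpt2, Scd2, Fads2, Irx5, Lig1 and Ramp2, all near 1.5-fold, with library size alone or without mitochondrial genes. No paired analysis was possible because each group has 1 column with no replicate number, and leaving out a replicate was not possible for the same reason. Depth limits genes below 5 CPM most, where about 28.1% to 30.1% of genes were called.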

Other observations

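Several gene groups differed little between the compounds. Of 26 heat shock and ER chaperones 1 was called, Calr, calreticulin, with 10370 counts with GANT61, 17420 with cyclopamine and 16601 with DMSO (log2 ratio -0.65). Of 28 lysosome and autophagy genes 2 were called lower and 1 higher, with a median of 0.001. Sqstm1, the autophagy receptor p62, had 21715, 15534 and 13496 counts, at the threshold of 1.5-fold. Atp6v0d2, a proton pump subunit, had 0, 16 and 2 counts, which is at least 4.97-fold lower with GANT61 than with cyclopamine against a floor of 3 counts.

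Of 18 circadian genes 2 were called lower, Hlf, a clock output factor (148, 446 and 473 counts, -1.48), and Npas2 (122, 213 and 155 counts, -0.69). Of 27 genes of fatty acid oxidation 2 were called lower, the uncoupling protein Ucp3 on 3, 15 and 10 counts and Cpt2, a carnitine transferase, at -0.60. For both lists the share is near the 8.83% called lower over all genes. By annotation class, 733 protein-coding genes of 13136 were called higher and 1036 lower. Among 393 lincRNAs, 46 were called higher and 75 lower. The shares over all genes were 6.16% higher and 8.83% lower, and more genes were called at low levels. The levels of the lincRNAs were not compared with those of other genes.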
